A study of Mus musculus with 15 samples.

Results

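Adult mice fed propylthiouracil (PTU) for 2 weeks were compared with untreated mice by sequencing the nuclear RNA of cortical parvalbumin neurons. PTU, given in food pellets, blocks the synthesis of thyroid hormone and lowers its level in blood. The comparison held 7 of the 15 libraries of the series, namely 3 PTU libraries, numbered 5 to 7 in their titles, and 4 Ctrl libraries, numbered 1 to 4. All 7 came from animals of the genotype PvCre ROSA-tomato-lox Thra+/+, in which Cre, active in parvalbumin-expressing cells, switches on a fluorescent protein of the nucleus, and labelled nuclei were sorted from frozen cortices. Cortices were processed individually, and replicates were read as separate mice. The other libraries of the series are used only as values set beside this comparison. PTU+TH mice (4 libraries) had the same genotype and diet and thyroid hormone injected into the peritoneum 24 h before the cortex was taken. Mut mice (4 libraries) were untreated littermates of Ctrl with the genotype PvCre ROSA-tomato-lox ThraAMI/+, a floxed allele that makes the dominant negative receptor TRalpha1L400R. Neither the sex of the mice nor the dose of PTU is given in the labels.

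Thyroid hormone enters the cell through membrane transporters, is activated or inactivated by deiodinases, and binds nuclear receptors encoded by Thra and Thrb. The receptors sit on their target genes with or without hormone. Without hormone they recruit corepressors, and with hormone coactivators, so that many direct targets lose expression when hormone is scarce. Parvalbumin neurons are the fast-spiking inhibitory interneurons of the cortex. Their firing depends on particular potassium and sodium channels, and many are wrapped in a perineuronal net of proteoglycans.

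The count tables came in 2 sets that coincide with the diet. The tables of PTU and PTU+TH list 55341 gene symbols, while those of Ctrl and Mut list 48321. The analysis was therefore limited to the 46380 symbols present in both. From these, 24293 predicted gene models were removed, and of the remaining 22087 genes, 12749 had at least 1 count in all 7 libraries. Of these, 12449 (97.6%) passed a filter on low counts and were tested. PTU libraries held 14470513 to 15449322 counts and Ctrl libraries 23786090 to 25377904. No pair of libraries within a group agreed within counting noise. PTU replicates 6 and 7 were alike (Spearman 0.994 across genes), whereas PTU replicate 5 stood apart from both (0.977 and 0.975). Genes longer than 100 kb took 39.9% of the counts in PTU replicate 5, 25.9% and 26.0% in PTU replicates 6 and 7, and 30.2% to 40.6% in the Ctrl libraries. Y-linked genes had counts above 50 CPM in Ctrl replicate 2 and PTU replicates 6 and 7 and not in the other 4. Because PTU and Ctrl libraries come from different table sets without exception, an effect of the diet and an effect of the table set cannot be told apart by this comparison alone. For part of the genes described, though not for all, levels in PTU+TH, which share the table set of PTU, or in Mut, which share that of Ctrl, are therefore given as well. A gene is called set-apart if all PTU and PTU+TH libraries lay on the same side of all Ctrl and Mut libraries. A change under PTU that the injection did not alter would give the same pattern. Levels are CPM, counts relative to a common scaled library size, and differences are log2 of PTU over Ctrl with standard errors.

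The tested genes showed 798 differences between PTU and Ctrl (6.41%) by edgeR's quasi-likelihood test at an adjusted p under 0.05. Of these, 315 genes were higher in PTU (2.53% of those tested) and 483 were lower (3.88%). At an unadjusted p under 0.05 the count was 2809. The PTU and Ctrl ranges did not overlap in 790 of the 798 called genes, and in 20.6% of all genes tested. The median log2 difference was 0.01 over all tested genes, and the median absolute difference of the called genes was 0.97. Leaving out PTU replicate 5 raised the number of calls to 2257, and leaving out PTU replicate 6 lowered it to 353, so the count depended on which PTU libraries entered. Without PTU replicate 7 it was 410, and it was 473 and 499 without Ctrl replicates 3 and 4. With every shared symbol in the fit, predicted models included, the split was 633 higher and 602 lower.

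The called genes fell into 2 kinds, which the plot of difference against level separates. In 463 of the 798 the library sets did not overlap, against 836 of all tested genes (6.72%). These set-apart genes made up 374 of the 483 lower genes and 89 of the 315 higher genes, and their median absolute difference was 1.39. The other 335 called genes, 226 higher and 109 lower, had library sets that overlapped, and a median absolute difference of 0.75. In all but the few of them whose PTU and Ctrl ranges overlapped, it was PTU+TH or Mut values that crossed between the sets. Among the 84 genes that differed over 8-fold, 79 were set-apart and 78 were lower in PTU.

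**Figure D1:**
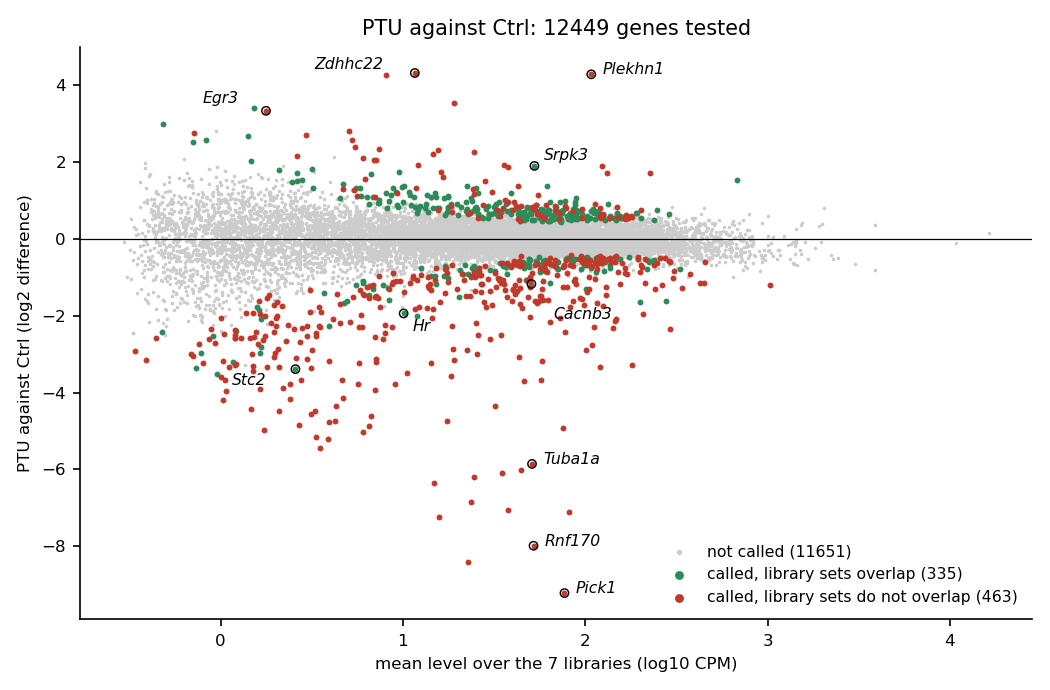
Log2 difference of PTU against Ctrl (vertical axis) against the mean level over the 7 libraries (horizontal axis, log10 CPM), 1 point per tested gene, with called genes split by whether the library sets overlap. The differences beyond 4 log2 units downward are almost all set-apart genes such as Pick1, Rnf170 and Tuba1a, while Hr, Cacnb3 and Srpk3 lie among the called genes whose library sets overlap.

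Among the genes whose library sets overlapped was Hr (chromosome 14, 70552212 to 70573548), which encodes a nuclear corepressor and is directly induced by hormone-bound receptors in brain. Hr was at 2.67, 5.77 and 3.13 CPM in the PTU libraries and at 16.6, 15.8, 13.8 and 12.9 CPM in Ctrl. Every PTU library was below every Ctrl library, and the group means differed by 3.83-fold. The log2 difference was −1.94 ± 0.28 (edgeR adjusted p = 0.00116). In PTU+TH, of the same table set as PTU, Hr lay at 42.4 to 49.5 CPM, above Ctrl, and in Mut, of the set of Ctrl, it lay at 0.486 to 4.05 CPM. PTU and Mut, which belong to different table sets, were thus both below Ctrl. Levels are means over sorted nuclei, so fewer nuclei with a transcript and less transcript per nucleus cannot be told apart.

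Hr belongs to a group of genes that were singled out after their values were seen, because they also passed the edgeR test of PTU+TH against PTU, where 51 of 12095 genes were called (0.422%). Both tests use the PTU libraries, so a gene high or low by chance in PTU would pass both in opposite directions, and the number of such genes is not read as a result. There were 22 of them, 15 lower and 7 higher in PTU than in Ctrl. For comparison, Mut against Ctrl called 78 of 12838 genes (0.608%), and PTU+TH against Ctrl 1411 of 12642 (11.2%). Those comparisons share libraries with the present one as well, and only their levels are set beside it.

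Cacnb3 (chromosome 15, 98630840 to 98644529), an auxiliary beta subunit of voltage-gated calcium channels, was at 24.4, 34.6 and 29.7 CPM in PTU. In Ctrl it was at 80.9, 82.9, 48.1 and 54.2 CPM, so the groups did not overlap although the Ctrl libraries formed a high and a low pair. The log2 difference was −1.17 ± 0.21 (edgeR adjusted p = 0.00628). It lay at 90.2 to 104 CPM in PTU+TH and at 17.6 to 24.5 CPM in Mut.

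Sema7a (chromosome 9, 57940112 to 57962865), a membrane-anchored semaphorin that signals through integrins and plexin C1, was at 32.3, 38.3 and 33.3 CPM in PTU and at 49.9, 51.9, 68.9 and 54.5 CPM in Ctrl. The groups did not overlap, and the log2 difference was −0.70 ± 0.15 (edgeR adjusted p = 0.0150). The call was lost without PTU replicate 7 (edgeR adjusted p = 0.0735). PTU+TH lay at 74.0 to 94.9 CPM and Mut at 13.8 to 26.6 CPM.

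Rgcc (chromosome 14, 79288756 to 79301645), a regulator of cell cycle kinases, was at 31.4, 25.6 and 29.6 CPM in PTU and at 69.6, 50.9, 53.4 and 69.6 CPM in Ctrl. The PTU libraries were close together and all below Ctrl, with a log2 difference of −1.08 ± 0.17 (edgeR adjusted p = 0.00190). Mrvi1 (chromosome 7, 110868266 to 110982461) encodes a partner of the inositol trisphosphate receptor that is phosphorylated by cGMP-dependent kinase. Its levels were 13.4, 7.32 and 8.82 CPM in PTU and 24.6, 36.5, 25.1 and 27.1 CPM in Ctrl. The log2 difference was −1.52 ± 0.24 (edgeR adjusted p = 0.00231), and Mut lay lower still, at 0.668 to 6.96 CPM. The fit to all 4 groups did not call Mrvi1 (edgeR adjusted p = 0.0667).

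Stc2 (chromosome 11, 31357307 to 31370074), the secreted glycoprotein stanniocalcin-2, was nearly absent from PTU, at 0.479, 0.269 and 0.438 CPM, against 5.26, 4.22, 3.64 and 3.70 CPM in Ctrl. It had the largest fall of the 15 lower genes (log2 −3.39 ± 0.42, edgeR adjusted p = 0.000375), from few counts. PTU+TH reached 2.20 to 3.19 CPM, below every Ctrl library. Trib1, a pseudokinase that acts as a scaffold for protein degradation, fell by 1.47 on the log2 scale (edgeR adjusted p = 0.00760), from 6.82 to 11.8 CPM in Ctrl to 2.74 to 3.503 CPM in PTU. Its PTU+TH libraries, at 6.75 to 11.5 CPM, covered nearly the same range as Ctrl.

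The other 8 lower genes are given by their ranges. Vash2, a vasohibin that removes the terminal tyrosine of tubulin, was at 24.6 to 29.1 CPM in PTU and 38.3 to 46.7 CPM in Ctrl. Stac2, an adaptor of voltage-gated calcium channels, was at 92.1 to 109 CPM and 138 to 161 CPM. Gpr83, a G protein-coupled receptor, was at 61.9 to 96.8 CPM and 97.9 to 154 CPM, so that its highest PTU library reached almost to its lowest Ctrl library. Frmpd1, a scaffold with FERM and PDZ domains, was at 72.0 to 114 CPM in PTU and 138 to 171 CPM in Ctrl. Npnt, the integrin ligand nephronectin, was at 41.1 to 54.4 CPM and 63.9 to 73.4 CPM. Cenpa, the centromeric histone H3 variant, was at 30.96 to 34.63 CPM and 48.6 to 67.0 CPM. Ung, the uracil-DNA glycosylase of base excision repair, was at 2.56 to 4.30 CPM and 5.21 to 8.92 CPM. Abcd2, a peroxisomal transporter of very long chain fatty acids, was at 37.4 to 40.5 CPM and 52.1 to 61.1 CPM. Log2 differences of these 8 genes ran from −1.21 for Ung to −0.53 for Abcd2, with edgeR adjusted p from 0.00904 for Cenpa to 0.0392 for Ung. When each of the 7 libraries was left out in turn, Hr, Cacnb3, Rgcc, Mrvi1, Stc2 and Trib1 passed all 7 times, Vash2, Stac2 and Cenpa 6 times, Frmpd1 5 and Gpr83 3. Npnt and Ung passed 2 times and Abcd2 1 time.

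The 7 other genes of this group were higher in PTU. Srpk3 (chromosome X, 73774405 to 73778925), a kinase of serine/arginine-rich splicing factors, was at 81.3, 93.1 and 96.8 CPM in PTU and at 17.2, 35.6, 17.3 and 27.0 CPM in Ctrl. The means differed by 3.73-fold, far more than the spread within either group (log2 1.90 ± 0.23, edgeR adjusted p = 0.000394). PTU+TH, at 29.1 to 47.0 CPM, overlapped Ctrl, and Mut lay at 31.3 to 68.9 CPM. Izumo4 (chromosome 10, 80702184 to 80705373), of a family named for a sperm surface protein, was at 48.5, 67.1 and 58.8 CPM in PTU and at 25.9, 29.2, 21.6 and 24.3 CPM in Ctrl. Its log2 difference was 1.20 ± 0.15 (edgeR adjusted p = 0.000473), and both genes passed in 7 of 7 omissions.

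Tle2, a Groucho-type corepressor, was at 87.1 to 115 CPM in PTU and 50.4 to 67.5 CPM in Ctrl. Plxna3, a plexin that transmits semaphorin signals, was at 37.2 to 50.6 CPM and 16.04 to 27.89 CPM. Camk1, a kinase activated by calcium and calmodulin, was at 159 to 188 CPM in PTU and 110 to 139 CPM in Ctrl. Ppfibp1, the scaffold liprin beta 1, was at 27.0 to 33.7 CPM and 11.5 to 22.3 CPM. Their log2 differences were 0.54 for Camk1 to 0.96 for Ppfibp1 (edgeR adjusted p from 0.00663 for Tle2 to 0.0280 for Ppfibp1), and none of the 4 had overlapping groups. Tle2 and Plxna3 passed in 6 of the 7 omissions, Ppfibp1 in 3 and Camk1 in 2. Klhl33, a Kelch-like gene, stood outside this pattern. It was at 12.5 to 14.6 CPM in PTU and 1.99 to 3.45 CPM in Ctrl, was higher still in PTU+TH (32.6 to 38.7 CPM), and was set-apart.

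**Figure D2:**
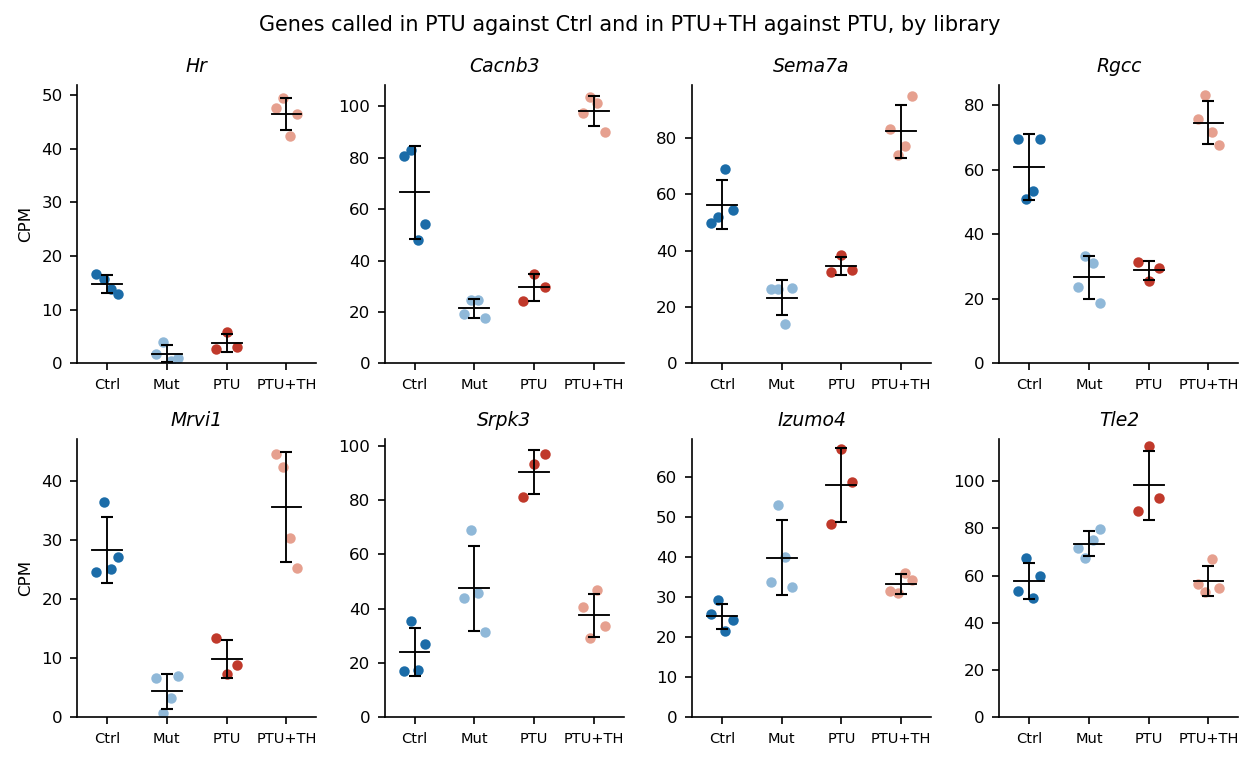
Levels in CPM of 8 genes in each library of the 4 groups (points), with the mean and SD of each group (bars). Hr, Cacnb3, Sema7a, Rgcc and Mrvi1 are low in PTU and Mut and at or above Ctrl in PTU+TH, and Srpk3, Izumo4 and Tle2 are highest in PTU.

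A further pair chosen after their values were seen shows the same arrangement without passing the test of PTU+TH against PTU. Galnt14, which starts mucin-type glycosylation, was at 31.8, 19.9 and 22.8 CPM in PTU and at 53.8, 39.1, 50.7 and 43.8 CPM in Ctrl (log2 −0.91 ± 0.19, edgeR adjusted p = 0.0145). Prmt2, an arginine methyltransferase, was at 55.5, 64.4 and 73.2 CPM in PTU and at 36.2, 38.2, 31.1 and 38.7 CPM in Ctrl (log2 0.84 ± 0.14, edgeR adjusted p = 0.00346). Mut lay at 12.7 to 27.2 CPM for Galnt14 and at 55.4 to 69.0 CPM for Prmt2.

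Promoter sequences were read for these 22 genes because thyroid hormone receptors bind DNA at copies of the hexamer AGGTCA, which many other nuclear receptors also recognise. RefSeq windows of 250 bases before the start on GRCm38.p6 were found for 17 of the 22 genes, but not for Hr. There were 22 windows in all, and 3 of these held AGGTCA on either strand. Among all 32851 mouse windows, 4607 (14.0%) held it. The windows with it belonged to Npnt, Mrvi1 and Klhl33. Those of Npnt and Mrvi1 are printed here with windows of Cacnb3 and Sema7a, which did not hold it, so that the promoters of genes that fell can be compared. Capitals mark AGGTCA, and each sequence reads 5′ to 3′ toward the start. The Npnt window is chr3:132950292-132950541, minus strand, with the match beginning 188 bases before the start. The other Npnt window, chr3:132949815-132950064, held no match. The Mrvi1 window is chr7:110946188-110946437, minus strand, before an internal start of the gene, with the match 7 bases before it. The other Mrvi1 window, chr7:110982462-110982711 at the annotated start of the gene, held no match. The Cacnb3 window is chr15:98632078-98632327, plus strand, which lies inside the gene as annotated in GENCODE, and the Sema7a window is chr9:57939862-57940111, plus strand.
Npnt: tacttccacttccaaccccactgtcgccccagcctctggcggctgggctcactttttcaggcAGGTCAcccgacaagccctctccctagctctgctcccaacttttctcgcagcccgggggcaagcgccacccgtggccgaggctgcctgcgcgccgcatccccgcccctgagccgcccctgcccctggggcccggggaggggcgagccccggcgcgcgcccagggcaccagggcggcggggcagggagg
Mrvi1: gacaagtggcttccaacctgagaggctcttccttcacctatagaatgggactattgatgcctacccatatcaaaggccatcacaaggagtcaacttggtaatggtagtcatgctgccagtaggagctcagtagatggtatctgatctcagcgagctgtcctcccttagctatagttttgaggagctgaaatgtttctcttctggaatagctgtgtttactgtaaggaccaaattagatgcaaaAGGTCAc
Cacnb3: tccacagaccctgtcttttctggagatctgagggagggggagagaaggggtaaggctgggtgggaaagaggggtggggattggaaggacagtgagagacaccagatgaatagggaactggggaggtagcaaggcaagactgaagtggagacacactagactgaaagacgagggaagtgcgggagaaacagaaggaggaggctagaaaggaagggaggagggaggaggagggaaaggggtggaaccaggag
Sema7a: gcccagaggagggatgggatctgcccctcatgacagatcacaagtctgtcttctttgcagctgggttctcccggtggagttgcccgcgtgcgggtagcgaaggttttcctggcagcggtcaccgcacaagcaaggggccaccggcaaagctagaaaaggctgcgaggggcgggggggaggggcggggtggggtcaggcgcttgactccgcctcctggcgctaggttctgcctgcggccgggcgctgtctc
A match is a description of these letters, and distant elements were not searched.

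Of 18 genes known to be induced by thyroid hormone in brain, 5 were called, against 6.41% of all tested genes, and none was set-apart. Hr, Sema7a and Abcd2 fell, whereas Mbp, which encodes myelin basic protein, and Col6a1, a collagen VI chain, rose. The median log2 difference of the 18 was −0.35, beside 0.01 over all genes. Because the list was chosen with earlier results of these data known, its calls and median are description only. Several of the best-known members did not pass. Klf9, a Krüppel-like transcription factor, was at 25.7, 29.5 and 33.0 CPM in PTU and at 37.2, 37.9, 41.9 and 39.8 CPM in Ctrl. Its groups did not overlap, but the difference did not pass (log2 −0.41 ± 0.14, edgeR adjusted p = 0.102). Dbp, a clock output gene, had a difference of 0.28 ± 0.21 (edgeR adjusted p = 0.481) and overlapping groups, although PTU+TH lay at 50.8 to 54.0 CPM, above the 19.4 to 28.0 CPM of PTU. Flywch2, at 3.63 to 5.64 CPM in PTU and 5.73 to 7.52 CPM in Ctrl, and Itga7, an integrin chain, at 56.5 to 73.6 CPM and 72.7 to 93.3 CPM, did not pass either (edgeR adjusted p = 0.259 and 0.175).

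None of the 15 receptor and cofactor genes was called. Thra, which encodes the main thyroid hormone receptor of neurons, was at 66.2, 75.9 and 82.3 CPM in PTU and at 62.9, 59.3, 50.1 and 64.7 CPM in Ctrl (log2 0.34 ± 0.13, edgeR adjusted p = 0.164). Thrb, the other receptor gene, ranged from 190 to 588 CPM in PTU and from 328 to 698 CPM in Ctrl, with the highest level in PTU replicate 5 and Ctrl replicate 1, the libraries richest in long genes. The edgeR adjusted p was 0.573. Without PTU replicate 5 the log2 difference was −1.10 (edgeR adjusted p = 0.0139), and with an offset for gene length −0.23 (edgeR adjusted p = 0.399). The retinoid X receptor gene Rxrg, a partner of the hormone receptors, was at 3.75 to 7.99 CPM in PTU and 0.690 to 2.85 CPM in Ctrl and fell just short of the threshold (log2 1.75 ± 0.48, edgeR adjusted p = 0.0501). The corepressor and coactivator genes Ncor1, Ncoa1, Ncoa2, Ncoa3 and Med1 had log2 differences between −0.33 and −0.04, none of which passed. Positive differences were found in 7 of the 15 genes, among them the corepressor complex genes Hdac3 (log2 0.50), Gps2 (log2 0.30) and Tbl1x (log2 0.07), which did not pass either.

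In the list of hormone transport and deiodination, the transporter genes Slc16a10, Slco1c1, Slc7a8 and Slc3a2 did not pass, with edgeR adjusted p from 0.172 to 0.968. Dio2, the activating deiodinase, was left out of the test because Ctrl replicate 1 had no count. It had 18, 25 and 26 counts in PTU and 0, 25, 8 and 15 counts in Ctrl, whose libraries were deeper. Dio1, Dio3 and Slc7a5 were listed at 0 in all 7 libraries.

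Markers placed the nuclei with inhibitory neurons in both groups. Gad1, the GABA-synthesising enzyme, ranged from 1020 to 1720 CPM over the 7 libraries, while Slc17a7, a vesicular glutamate transporter of excitatory neurons, ranged from 18.4 to 43.3 CPM. Pvalb was at 102, 88.9 and 104 CPM in PTU and at 120, 139, 122 and 117 CPM in Ctrl. The ranges did not overlap, but the difference did not pass (log2 −0.34 ± 0.12, edgeR adjusted p = 0.130). Of 23 tested identity genes of parvalbumin neurons, 19 had negative differences, with a median of −0.20. Among all tested genes, 51.1% had positive differences. The 25 listed genes summed to 14860, 11830 and 12840 CPM in PTU and to 17490, 13670, 14910 and 14990 CPM in Ctrl. The highest sums were in PTU replicate 5 and Ctrl replicate 1, the libraries richest in long genes in their groups. Of the 23 tested genes 1 was called, beside 6.41% of all tested genes. This was Pthlh, parathyroid hormone-like hormone, at 8.90, 10.7 and 13.3 CPM in PTU and at 16.8, 19.4, 18.5 and 18.9 CPM in Ctrl (log2 −0.74 ± 0.19, edgeR adjusted p = 0.0367). Pthlh was set-apart, with PTU+TH at 5.30 to 10.8 CPM and Mut at 15.8 to 29.8 CPM, and its call held in 2 of 7 omissions.

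No perineuronal net gene passed among the 20 tested. Acan, the core proteoglycan aggrecan, was at 52.15, 50.02 and 43.78 CPM in PTU and at 70.77, 65.14, 70.22 and 57.02 CPM in Ctrl, without overlap (log2 −0.43 ± 0.13, edgeR adjusted p = 0.0793). Hapln1, the link protein that ties proteoglycans to hyaluronan, was at 34.1 to 48.1 CPM in PTU and 50.05 to 60.53 CPM in Ctrl (log2 −0.45 ± 0.15, edgeR adjusted p = 0.0965). The median of the 20 genes was 0.10, so the low levels of these 2 were not shared by the list.

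The counts of called genes in the lists that follow are set beside 6.41% called among all tested genes, and nothing particular to a list is read from them. Among 56 potassium channel genes, the leak channel gene Kcnk1 fell and the related Kcnk9 rose. Kcnk1 (chromosome 8, 125995170 to 126030685), which encodes TWIK-1, was at 60.6, 66.5 and 69.0 CPM in PTU and at 155, 192, 184 and 184 CPM in Ctrl (log2 −1.45 ± 0.13, edgeR adjusted p = 2.02e-05). It was set-apart, although PTU+TH (71.6 to 108 CPM) and Mut (115 to 157 CPM) lay closer together. Of the exonic sequence of Kcnk1, 6.7% recurs elsewhere in the annotated transcripts. Exons of genes listed only in the PTU and PTU+TH tables cover 8% of its exonic bases. Kcnk9, which encodes TASK-3, was at 2.46 to 3.88 CPM in PTU and 0.0813 to 0.758 CPM in Ctrl (log2 3.41 ± 0.66, edgeR adjusted p = 0.00904). These are few counts, and PTU+TH was similar to PTU, at 1.25 to 4.03 CPM.

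Among 11 sodium channel genes, Fgf12, a channel-binding member of the fibroblast growth factor family, was called as higher. Its PTU levels of 1921, 642 and 676 CPM were unequal, with PTU replicate 5 far above the others, and Ctrl was at 527, 307, 347 and 321 CPM (log2 1.53 ± 0.39, edgeR adjusted p = 0.0459). Fgf12 is a very long gene, and PTU replicate 5 and Ctrl replicate 1, each the highest library of its group, also had the largest shares of counts in long genes in their groups. Without PTU replicate 5 the log2 difference was 0.81 (edgeR adjusted p = 0.0168), and with an offset for gene length it was 1.76 (edgeR adjusted p = 2.43e-07). The call was lost without Ctrl replicate 2, 3 or 4 (edgeR adjusted p = 0.0816, 0.115 and 0.111). Of 19 calcium channel genes, 16 had negative differences, whereas 51.1% of all tested genes had positive ones. The 19 summed to 3415, 2088 and 1840 CPM in PTU and to 3699, 2762, 2828 and 2767 CPM in Ctrl. The highest sums were thus in PTU replicate 5 and Ctrl replicate 1, the libraries richest in long genes in their groups. The part of gene length in the differences of this list was not tested. Cacnb3 and Cacna2d1 fell, where 3.88% of all tested genes were lower. Cacna2d1, the gabapentin-binding alpha2delta subunit, was at 5.00, 9.53 and 8.44 CPM in PTU and at 26.8, 16.8, 14.8 and 15.5 CPM in Ctrl and was set-apart (log2 −1.27 ± 0.28, edgeR adjusted p = 0.0198). Kcng4, a modifier of Kv2 channels, and Scn4b, a sodium channel beta subunit, overlapped between PTU and Ctrl. Kcng4 was at 38.7 to 67.4 CPM in PTU and 47.6 to 78.7 CPM in Ctrl, and Scn4b at 72.1 to 118 CPM and 95.7 to 124 CPM (edgeR adjusted p = 0.550 and 0.708).

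In calcium handling, Ncald, the calcium sensor neurocalcin delta, fell and Hpca, the related sensor hippocalcin, rose, among 26 genes. Ncald was at 126, 114 and 138 CPM in PTU and at 331, 232, 290 and 267 CPM in Ctrl (log2 −1.15 ± 0.16, edgeR adjusted p = 0.000779) and was set-apart. Its exonic sequence recurs elsewhere for 6.5%, and 3.3% lies under exons of genes listed only in the PTU and PTU+TH tables. Hpca, at 25.9 to 48.0 CPM in PTU and 19.96 to 23.57 CPM in Ctrl, was not set-apart, and its call held in 1 of 7 omissions. Of 12 GABA-A receptor subunit genes, 10 had negative differences, with a median of −0.35. The 14 listed genes summed to 3610, 2668 and 2791 CPM in PTU and to 4474, 3527, 3752 and 3814 CPM in Ctrl. PTU replicate 5 and Ctrl replicate 1, the libraries richest in long genes in their groups, were again the highest. None of the 20 AMPA and NMDA receptor genes, of the 15 genes of GABA and glutamate metabolism, or of the 4 HCN channel genes was called.

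Among 30 genes of synaptic release, Sv2c and Unc13c fell and Stx1a rose. Sv2c (chromosome 13, 95954594 to 96132577), a synaptic vesicle glycoprotein, was at 7.67, 9.20 and 6.07 CPM in PTU and at 43.9, 46.4, 51.3 and 45.7 CPM in Ctrl (log2 −2.61 ± 0.18, edgeR adjusted p = 2.40e-06). PTU+TH, at 5.45 to 10.02 CPM, was like PTU and Mut, at 40.0 to 73.9 CPM, like Ctrl, so Sv2c was set-apart. Of its exonic sequence, 0.5% recurs elsewhere in the annotated transcripts. Stx1a, the fusion protein syntaxin 1A, was at 27.4, 34.2 and 37.2 CPM in PTU and at 21.3, 18.5, 18.2 and 20.1 CPM in Ctrl (log2 0.75 ± 0.16, edgeR adjusted p = 0.0141). The call held in 4 of 7 omissions. Mut was also above Ctrl for Stx1a, at 25.2 to 40.2 CPM, and PTU+TH was between, at 20.4 to 33.8 CPM. Unc13c, a vesicle priming factor, and Cort, the neuropeptide cortistatin, fell (log2 −1.33 and −1.02), both set-apart, and their calls held in 1 and 0 of the 7 omissions.

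**Figure D3:**
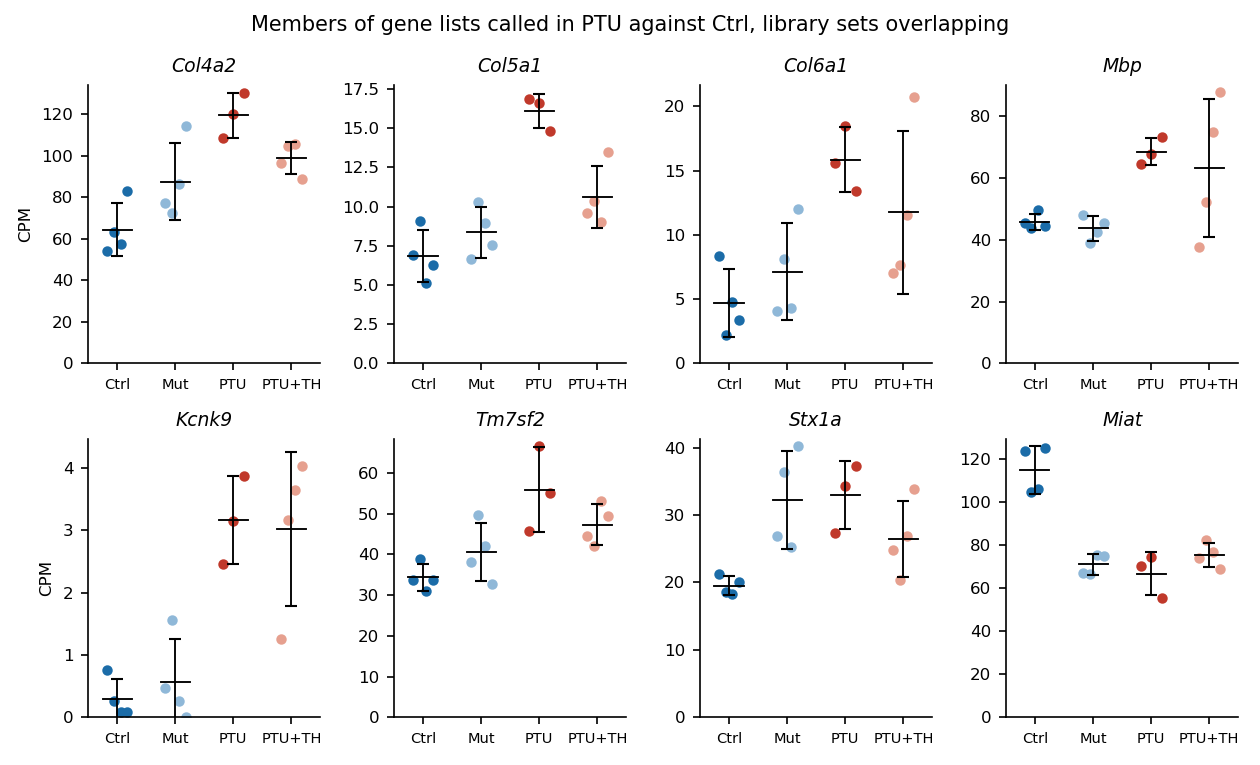
Levels in CPM of 8 called members of the gene lists in each library of the 4 groups (points), with the mean and SD of each group (bars). Col5a1 lies higher in PTU than in any other group, Kcnk9 lies high in PTU and PTU+TH, and Miat is lower in all 3 other groups than in Ctrl.

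Of 38 matrix and integrin genes, 3 rose and 4 fell, and the median was −0.07, beside 2.53% higher and 3.88% lower among all tested genes. The 3 that rose were collagen chains. Col4a2 (chromosome 8, 11312805 to 11449287), of basement membrane collagen IV, was at 108, 120 and 130 CPM in PTU and at 54.4, 63.2, 57.4 and 82.9 CPM in Ctrl (log2 0.89 ± 0.15, edgeR adjusted p = 0.00393). Col5a1 was at 16.8, 16.6 and 14.8 CPM in PTU and at 6.91, 9.10, 5.13 and 6.30 CPM in Ctrl (log2 1.23 ± 0.22, edgeR adjusted p = 0.00594). Both passed in all 7 omissions, whereas Col6a1, at 13.4 to 18.5 CPM in PTU and 2.24 to 8.33 CPM in Ctrl, passed in 4. In PTU+TH, Col5a1 lay at 9.03 to 13.5 CPM, below every PTU library, and Col4a2 at 89.0 to 106 CPM. The genes that fell were Itga8, an integrin chain (log2 −2.29), and Col18a1, a collagen of basement membranes (log2 −3.00), which were set-apart, and Itga6 and Lama3. Itga8 was at 2.01 to 3.63 CPM in PTU and 12.01 to 14.1 CPM in Ctrl.

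Axon guidance genes showed 2 rises and 1 fall among 40. Besides Plxna3 and Sema7a, Sema4d, a ligand of plexin B receptors, rose from 27.2, 26.7, 29.2 and 24.8 CPM in Ctrl to 50.9, 42.6 and 47.4 CPM in PTU (log2 0.80 ± 0.14, edgeR adjusted p = 0.00417). Sema4d was set-apart, with PTU+TH at 39.4 to 57.4 CPM. Of 25 immediate early genes, 3 rose and none fell, where 2.53% of all tested genes were higher. Egr3, a zinc finger factor induced by activity, was at 3.42, 4.63 and 2.94 CPM in PTU and at 0.223 to 0.488 CPM in Ctrl (log2 3.33 ± 0.45, edgeR adjusted p = 0.000632) and was set-apart. Nr4a1, an orphan nuclear receptor, was at 22.3 to 24.6 CPM in PTU and 11.4 to 18.4 CPM in Ctrl, and Jun, of the AP-1 complex, at 7.80 to 15.01 CPM and 3.62 to 8.20 CPM. Each of the latter pair passed in 2 of 7 omissions. In the clock list 1 of 19 genes was called, the repressor Nr1d1, at 42.0, 50.6 and 59.7 CPM in PTU and 16.1, 27.6, 31.3 and 26.1 CPM in Ctrl (log2 1.01 ± 0.21, edgeR adjusted p = 0.0122). Nr1d1 was set-apart, and the hour of dissection is not given in the labels.

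Genes of energy metabolism were mostly level. Of 73 respiratory chain genes, 2 fell and none rose, with a median of 0.00. Cycs, cytochrome c, was at 15.7, 18.3 and 20.1 CPM in PTU and at 44.1, 67.2, 46.4 and 48.1 CPM in Ctrl (log2 −1.51 ± 0.18, edgeR adjusted p = 0.00025), and Ndufb9, a complex I subunit, at 24.98 to 31.46 CPM and 57.3 to 70.1 CPM. Both were set-apart, and 29.4% of the exonic sequence of Cycs and 17.2% of that of Ndufb9 recurs elsewhere in the annotated transcripts. Exons of genes listed only in the PTU and PTU+TH tables cover 19.5% of the exonic bases of Ndufb9 and none of Cycs. In glycolysis, Pgam1 and Pgk1 fell (log2 −1.77 and −0.89) and Pfkl, the liver type subunit of phosphofructokinase, rose (log2 0.77), and all 3 were set-apart. The shared sequence was 37.1% for Pgam1, 54.7% for Pgk1 and 0.5% for Pfkl.

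Of 30 genes of cholesterol and lipid synthesis, 2 rose and 4 fell, beside 6.41% called among all tested genes. Hmgcs1, which makes the precursor of the mevalonate pathway, was at 19.5, 23.1 and 28.5 CPM in PTU and at 46.5, 56.9, 59.6 and 55.1 CPM in Ctrl (log2 −1.20 ± 0.16, edgeR adjusted p = 0.000616) and was set-apart, as was Idi1 (log2 −1.91), a later enzyme of that pathway. Tm7sf2, a sterol reductase, was higher, at 45.8 to 66.7 CPM in PTU and 31.1 to 39.0 CPM in Ctrl (log2 0.70 ± 0.15, edgeR adjusted p = 0.0160). The calls of Tm7sf2 and Idi1 each held in 3 of 7 omissions. The shared sequence was 13.1% for Hmgcs1, 27.1% for Idi1 and 13.3% for Tm7sf2. Exons of genes listed only in the PTU and PTU+TH tables cover 12.1% of the exonic bases of Hmgcs1 and 9.2% of those of Idi1. They cover none of Tm7sf2. None of the 49 ribosomal protein genes, of the 11 ion pump genes, of the 7 tested genes of the mitochondrial genome or of the 3 tested neurofilament genes was called. Of 24 heat shock and stress genes 3 fell, namely the chaperone genes Hsp90aa1, Hspa8 and Hspa1b (log2 −0.997, −1.62 and −2.27), whose sequence is shared for 51.5%, 44.8% and 68.1%. Among nuclear long RNAs, Miat was at 70.6, 74.3 and 55.6 CPM in PTU and at 124, 105, 106 and 125 CPM in Ctrl (log2 −0.78 ± 0.14, edgeR adjusted p = 0.00611). Mut and PTU+TH lay at 66.7 to 75.4 and 68.9 to 82.3 CPM, so that Ctrl was the group apart. Malat1 was at 2547 to 2978 CPM in PTU and 3916 to 5591 CPM in Ctrl and did not pass (log2 −0.81 ± 0.25, edgeR adjusted p = 0.0822).

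Markers of other cell types were low and mostly alike in both groups. The astrocyte gene Gfap and the microglia gene P2ry12 were listed at 0 in all 15 libraries of the series. So was Slc7a5, an amino acid transporter gene that many cell types use, and these zeros are therefore not read as absence of those cells. The summed level of 13 oligodendrocyte markers was 140 to 219 CPM in PTU and 121 to 150 CPM in Ctrl, and 11 of 12 tested members had positive differences, with a median of 0.35. Mbp was the called member, at 64.7, 67.9 and 73.4 CPM in PTU and at 45.6, 43.9, 49.6 and 44.4 CPM in Ctrl (log2 0.58 ± 0.12, edgeR adjusted p = 0.0122). The call held in 4 of 7 omissions and was lost in the fit to all 4 groups (edgeR adjusted p = 0.0822). Its rise went with that of the oligodendrocyte markers as a list, whose part in it was not tested. The summed markers of excitatory neurons were 462 to 559 CPM in PTU and 425 to 505 CPM in Ctrl, and Fezf2, a factor of deep layer projection neurons, rose from 0.802 to 2.11 CPM in Ctrl to 2.67 to 5.44 CPM in PTU (edgeR adjusted p = 0.0469). The call of Fezf2 held in 1 of 7 omissions. The summed markers of astrocytes, microglia and vessels overlapped between the groups, and none of their members was called.

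**Figure D4:**
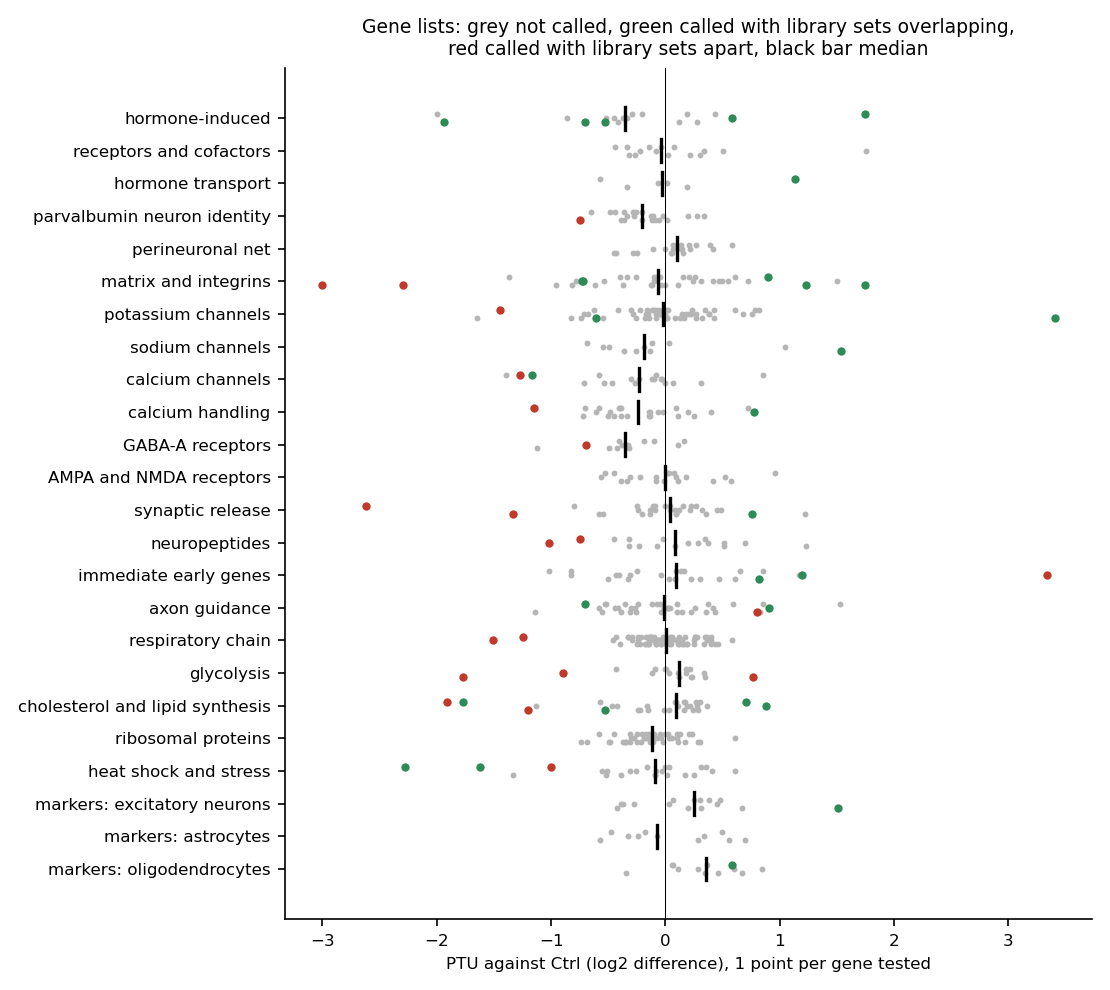
Log2 difference of PTU against Ctrl for the tested members of 24 gene lists (1 point per gene, vertical position within a list has no meaning), with the median of each list as a black bar. Most members lie near 0 and were not called, and among the 24 lists plotted the medians run from −0.35 for hormone-induced genes and GABA-A receptors to 0.35 for oligodendrocyte markers. Microglia markers (median 0.42 over 8 genes) and genes of the mitochondrial genome (0.35 over 7) are not plotted.

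The largest differences of the comparison were of the set-apart kind. Of the 10 largest rises and 10 largest falls with a mean of at least 5 CPM, all 20 were set-apart. They were picked among called genes whose PTU and Ctrl ranges do not overlap, which the set-apart pattern requires. Plekhn1 (chromosome 4, 156221456 to 156234857), which encodes a protein with a pleckstrin homology domain, was at 188, 283 and 237 CPM in PTU and at 11.99, 12.03, 10.64 and 13.66 CPM in Ctrl. PTU+TH lay at 192 to 248 CPM and Mut at 12.2 to 15.2 CPM, each close to the group of its own table set. Zdhhc22, a palmitoyltransferase, was at 19.0 to 30.6 CPM in PTU and 0.579 to 2.20 CPM in Ctrl. St3gal1, a sialyltransferase, was at 30.4 to 56.5 CPM and 2.63 to 4.19 CPM. The other large rises were Zscan30, Olfml2b, Atoh7, Epha8, Klhl33, Platr25 and Zfp606, with log2 differences from 2.27 to 4.26, beside 4.32 for Zdhhc22.

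The falls were larger. Pick1 (chromosome 15, 79229173 to 79249484), a PDZ protein that binds AMPA receptors, was at 0.0684, 0.269 and 0.313 CPM in PTU and at 133, 144, 130 and 130 CPM in Ctrl. PTU+TH held at most 0.835 CPM and Mut 126 to 161 CPM. Rnf170 (chromosome 8, 26119368 to 26151790), a ubiquitin ligase of the endoplasmic reticulum, was at 0.134 to 0.547 CPM in PTU and 85.7 to 97.2 CPM in Ctrl. Sspn, of the dystrophin complex, was at 0.269 to 1.81 CPM and 84.7 to 191 CPM. Tuba1a, an alpha-tubulin chosen after its values were seen because neurons express it abundantly, was at 1.37 to 1.63 CPM in PTU and 77.0 to 95.0 CPM in Ctrl. Actg1, cytoplasmic gamma-actin, likewise chosen, was at 7.05 to 7.82 CPM and 73.6 to 108 CPM. Log2 differences were −9.22 for Pick1, −7.99 for Rnf170, −7.10 for Sspn, −5.86 for Tuba1a and −3.67 for Actg1 (edgeR adjusted p from 1.61e-09 for Pick1 to 7.46e-05 for Sspn). The other large falls were Rnaset2b, Yipf2, Nupl1, Lats2, Fpr3, Rsph3b and Nmbr.

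Measures of the annotation moved with these falls. A gene was counted as sharing sequence if at least 5% of its exonic 31-base words occur in transcripts of another gene in GENCODE M21. Also counted was any gene with exonic bases under an exon of a gene listed only in the PTU and PTU+TH tables. Either condition held for 31.1% of all tested genes, for 26.1% of the genes higher in PTU and for 55.0% of those lower. Genes under such a gene, whether or not they reached 5%, made up 4.91% of tested genes and 13.7% of called genes. The shared part was 78.6% for Tuba1a, 77.8% for Rsph3b, 40.2% for Actg1 and 19.3% for Pick1, but 0.9% for Sspn and 0.3% for Plekhn1. Leaving out all genes counted as sharing sequence kept 317 calls among 8563 genes (133 higher, 184 lower). For Hr, Cacnb3, Sema7a, Rgcc and Srpk3 the shared part was 0.

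**Figure D5:**
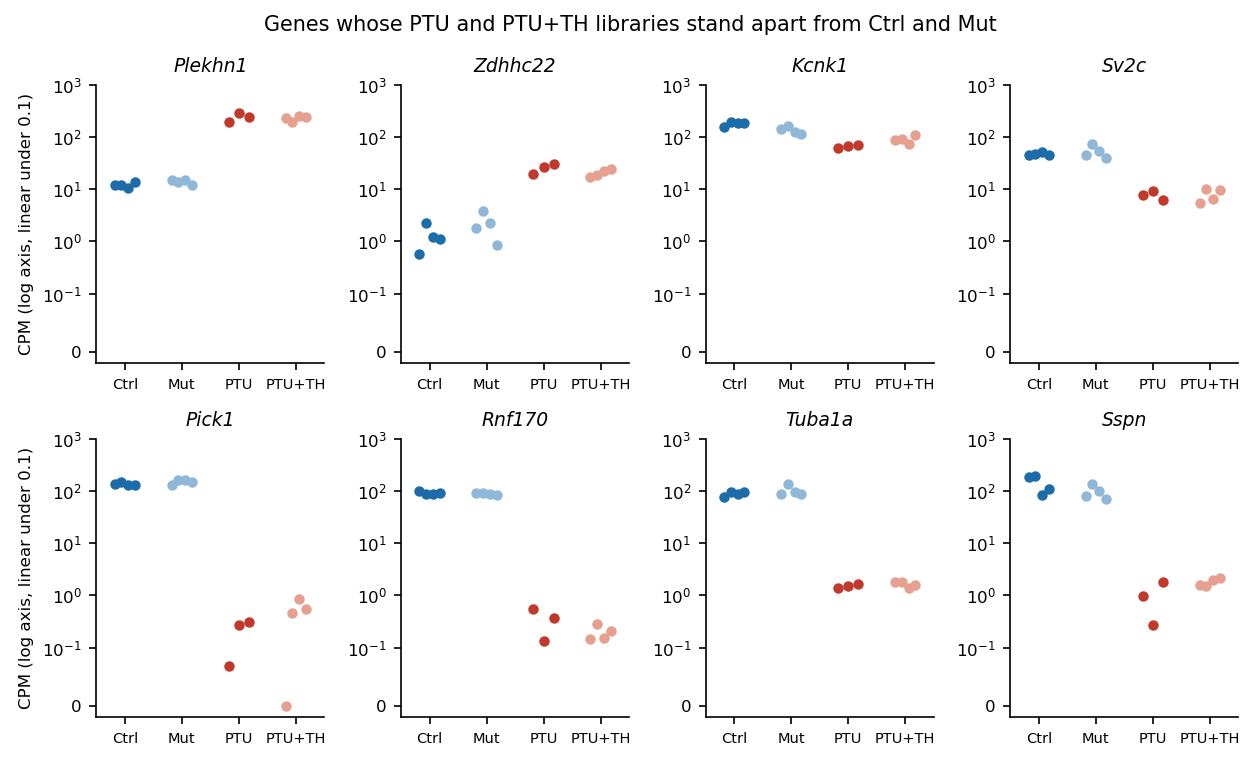
Levels in CPM (log axis, linear under 0.1) of 8 set-apart genes in each library of the 4 groups (points). For every gene shown the PTU and PTU+TH libraries lie together and apart from Ctrl and Mut, higher for Plekhn1 and Zdhhc22 and lower for the other 6.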

How the data were processed

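Nuclear RNA of sorted nuclei was amplified with a SMART-Seq v4 kit and read on a NextSeq500 instrument, as the labels' protocols state. For each library the authors deposited raw counts per gene. Per the submitters' processing notes, alignment to mm10 (GRCm38) used Bowtie2 2.5.3 and counting used HTSeq. Not given in the sources used here are the annotation release, counting mode and strand setting, and counts of overlapping, antisense and near-identical genes are therefore uncertain. Reads carry no molecular identifiers.

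Symbols made of Gm plus digits, ending in Rik or containing -ps were left out. Counts of the 7 libraries were tested with edgeR 4.0.16 in R 4.3.3 (TMM scaling, filterByExpr at 10 counts, quasi-likelihood fit with the robust option, Benjamini-Hochberg adjustment). The common biological coefficient of variation was 21.4%. The code was tested on simulated data. CPM were scaled over all 15 libraries. Alternatives used DESeq2 1.42.0, limma 3.58.1, other scalings, filters and samples. Positions are from GENCODE M21, promoters from RefSeq.

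The members and lists were chosen with earlier results of these data known. Genes named are the 10 largest rises and 10 largest falls of at least 5 CPM without overlap, the 4 called members of smallest p in each list or, where none was called, the 2 with the smallest p, and Thra, Thrb, Pvalb, Klf9, Hr and Dio2. Other genes were chosen after their values were seen, some from the list members that were not called. Lists were described by counts and medians, with no test. Some genes that meet this rule are left out of the text.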

Additional observations from a re-analysis of the deposited data

Results flagged for a closer look

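In 6 of the 147 measures examined over the 4 Ctrl libraries, levels of genes described here and 2 shares of counts, the highest Ctrl library stood apart from the other 3 by more than Dixon's 95% critical value, and chance alone flags about 1 in 20 such groups. Cacna2d1, called as lower in PTU, reached 26.8 CPM in Ctrl replicate 1, where the next highest library was at 16.8 CPM. Nr4a1, called as higher in PTU, reached 18.4 CPM in Ctrl replicate 1, with the next at 12.03 CPM. The others were not called. Aldoc, a glycolytic enzyme common in astrocytes, reached 54.7 CPM in Ctrl replicate 2, with the next at 46.6 CPM. Ncoa3, a nuclear receptor coactivator, reached 228 CPM, with the next at 198 CPM. Slc3a2, the heavy chain of amino acid transporters, reached 231 CPM, with the next at 192 CPM, and both were highest in Ctrl replicate 2. C1qa, a complement gene of microglia, reached 0.911 CPM in Ctrl replicate 3, with the next at 0.178 CPM.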

How the results depend on the processing

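Depth was 14470513 to 15449322 counts per PTU library, which limits genes of a few CPM, and 3 PTU mice limit the test. No paired analysis was possible because PTU is numbered 5 to 7 and Ctrl 1 to 4, so the groups share no replicate number. Table set and diet cannot be told apart. Against 798 calls (315 higher, 483 lower), omission of 1 library at a time gave 353 to 2257 calls (89 to 903 higher, 264 to 1354 lower), lowest without PTU replicate 6 and highest without PTU replicate 5. Omission of PTU replicate 7 or Ctrl replicates 1, 3 or 4 left 108, 168, 138 and 146 higher genes. The cause was not tested. DESeq2 called 1288 genes (545 higher, 743 lower) and limma-voom with quality weights 3834 (1861 and 1973). With all shared symbols in the fit there were 1235 calls (633 higher), and with an offset for gene length 1504 (681 and 823). The edgeR test against a 1.5-fold difference left 244 (39 and 205), by construction. Libraries with Y-linked counts alone, where Ctrl has 1 library assumed to vary like the others, gave 3366 (1559 and 1807). Those without, where PTU has 1, gave 271 (60 and 211). Fewer genes enter without those that share exons (379 calls, 143 and 236) or, added after seeing the data, those that share sequence (317 calls, 133 and 184). RLE and upper quartile scaling, both other filters, the fit to 4 groups and the Y-linked covariate stayed within 1.5 times for all 3 counts. For the single genes named, 2721 alternative results stayed on their side of the threshold, 244 lost the call and 114 gained it. No called gene changed sign under any of these alternatives, and genes that were not called did so 48 times, never past the threshold.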
